A study of Caenorhabditis elegans with 4 samples.

Results

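A set of 9 germline regulator genes of Caenorhabditis elegans was followed in ribosome footprints. They cover the Notch pathway that maintains germline stem cells, its targets, Nanos genes and the GLD-2 poly(A) polymerase complex. They were chosen by name, and all 9 were found by WormBase identifier among the 20179 genes of the count table that were kept. The libraries came from whole young adult worms, in 2 libraries of the double mutant strain cey-1 (rrr12), cey-4 (ok858) and 2 libraries of the wild-type strain N2. The cey genes encode Y-box proteins, a family of RNA-binding proteins with a cold-shock fold. The title of the series ties them to polysome formation. Each library was read from the fragments of about one ribosome's width that survive in purified monosomes, so a footprint level combines how much of a message is present with how densely ribosomes occupy it. RNA-seq was not analysed here. In whole worms, fewer cells of a type and less RNA per cell cannot be told apart. The labels do not say whether the libraries of a strain came from separate cultures, so the p-values measure the spread between these libraries, which may be technical.

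In the worm gonad, the distal tip cell displays the Notch ligand LAG-2 to the germ cells nearest to it. The germ cell receptor GLP-1 then acts through the DNA-binding protein LAG-1 to switch on lst-1 and sygl-1, whose products work with the FBF repressors to keep those cells dividing. Farther from the tip, GLD-1 with NOS-3, and GLD-2 with GLD-3, bring germ cells into meiosis. GLD-2 lengthens poly(A) tails in the cytoplasm but binds RNA poorly by itself. GLD-3, a Bicaudal-C family protein, and RNP-8 are alternative partners that bring it to its messages.

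Library totals were 27219638 and 22334239 counts in the mutant and 32960588 and 27906409 counts in N2, and levels are given as CPM, counts normalised to library size with TMM factors. Footprints on the mutated genes stood at 5.6% of the N2 level for cey-1 and 0.6% for cey-4. The 9 genes together held 0.0287% and 0.029% of all counts in the mutant libraries, against 0.0321% and 0.0323% in the N2 libraries. Since counts grow with the length of a message and no coding lengths were used, levels are compared between strains and not between genes.

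Of the 9 genes, 8 passed the filter on low counts and were tested, and nos-2 did not pass. gld-3 had the lowest fold change of the 8, with footprints at 67.4% of the N2 level. In all, 4 of the 8 fell in the mutant and 4 were not called at an edgeR adjusted p of 0.05. The 4 that fell were gld-3, gld-2, nos-3 and sygl-1, and when libraries were scaled on germline genes gld-2, nos-3 and sygl-1 turned to positive fold changes that did not pass. For the background, 16.6% of the 13086 genes tested fell and 17.4% rose. The number of the 8 that rose was 0, also at an unadjusted p under 0.05. DESeq2 called 0 higher and 1 lower, gld-3, and gave lag-2 no adjusted p. It called 7.7% of the 13086 genes higher and 9.06% lower, with any gene lacking an adjusted p taken as not called. With upper-quartile factors gld-3 was likewise the 1 gene of the 8 called lower, where 1598 of the 13086 genes fell and 2730 rose. The median log2 fold change of the 8, mutant over N2, was -0.12, against 0.012 over all genes tested.

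**Figure D1:**
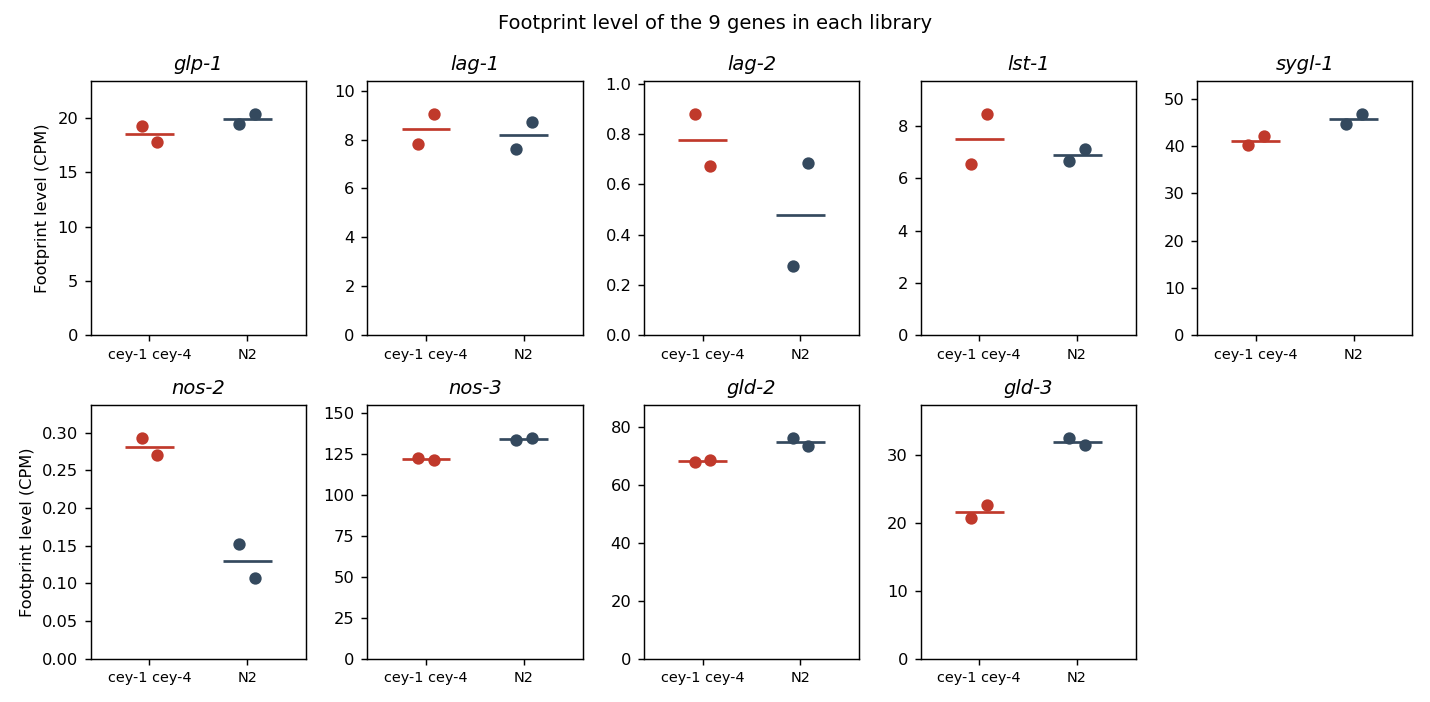
Footprint level in CPM (vertical axes, each starting at 0 with its own range) of each of the 9 genes in the cey-1 cey-4 mutant (left, red) and N2 (right, dark), 1 point per library with the group mean as a line. The gld-3 panel shows the mutant at 20.7 and 22.6 CPM, below N2 at 32.6 and 31.5 CPM, while lag-1, lag-2 and lst-1 overlap between strains.

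Among the genes of the poly(A) polymerase complex, gld-3 and gld-2 both fell with TMM scaling. gld-3 (WBGene00001597) had 20.7 and 22.6 CPM in the mutant libraries, against 32.6 and 31.5 CPM in the N2 libraries. Both mutant libraries lay well below both N2 libraries, and the gap was several times the distance between libraries of a strain. The means were 21.66 ± 1.36 CPM in the mutant and 32.02 ± 0.763 CPM in N2 (SD, n = 2 each). The log2 fold change was -0.57 (SE 0.066; edgeR adjusted p = 3.5e-11), with a 95% interval of the remaining level from 61.5% to 73.8%. Of all genes tested, 486 (3.7%) had a lower fold change. The call held under each of the 13 alternatives tried, with values from -0.74 to -0.35 and adjusted p from 4.92e-25 to 2.39e-04, the last with scaling on germline genes.

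gld-2 (WBGene00001596), the catalytic subunit, had 67.8 and 68.4 CPM in the mutant, against 76.2 and 73.4 CPM in N2. The libraries of the strains were again separate, by a small step that left 91.0% of the N2 level. At -0.14 on the log2 scale, gld-2 passed the test with TMM scaling (SE 0.048; edgeR adjusted p = 0.0194) and turned to 0.086 with scaling on germline genes. Over the 13 alternatives its adjusted p ran from 2.37e-08 to 0.32. The call was also lost without N2 replicate 1 (-0.11, adjusted p = 0.136), without mutant replicate 1 (-0.13, 0.135) and without mutant replicate 2 (-0.14, 0.0848).

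Because gld-2 and its partners were read from the same libraries, the count of one per 100 counts of another is free of any scaling. gld-3 had 30.5 and 33.1 counts per 100 gld-2 counts in the mutant, against 42.7 and 42.9 in N2. Exact 95% intervals take in counting error alone, and may be too narrow because copies made by PCR are not independent molecules. They ran from 27.7 to 36.6 over the mutant libraries and from 39.6 to 46.5 over the N2 libraries. gld-3 thus stood lower relative to gld-2 in each mutant library. No permutation of 2 against 2 libraries can give a 2-sided exact p under 0.333, so these ratios, whose pairs were picked after the values of the 9 genes were seen, are a description.

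RNP-8 is the other known partner of GLD-2, and rnp-8 also fell. It had 77.2 and 75.3 CPM in the mutant, against 101 and 101 CPM in N2, and fell to 75.4% of the N2 level (log2 fold change -0.41, SE 0.045; edgeR adjusted p = 5.71e-12). Relative to gld-2 it had 114 and 110 counts per 100 in the mutant, against 133 and 138 in N2. Between the partners, gld-3 had 26.8 and 30.0 counts per 100 rnp-8 counts in the mutant and 32.2 and 31.1 in N2, so both mutant ratios lay below both N2 ratios. The interval of mutant replicate 1 (24.4 to 29.4) lay below that of N2 replicate 1 (30.02 to 34.5) and overlapped that of N2 replicate 2 (28.8 to 33.6), and the interval of mutant replicate 2 (27.1 to 33.2) overlapped both. Whether gld-3 and rnp-8 differ in their change was not tested.

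**Figure D2:**
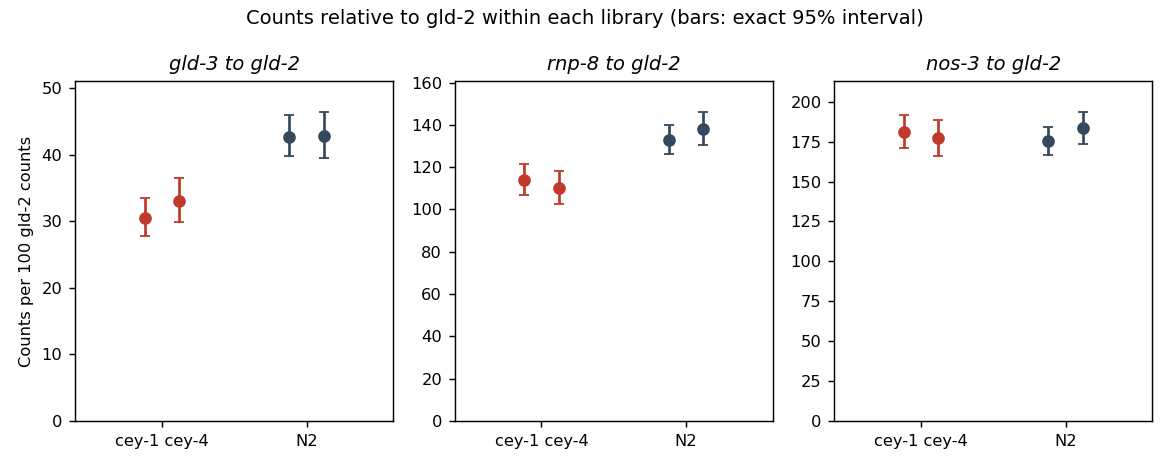
Counts of gld-3, rnp-8 and nos-3 per 100 gld-2 counts (vertical axes from 0) in each mutant (left, red) and N2 (right, dark) library, with exact 95% intervals for counting error. gld-3 and rnp-8 are lower in both mutant libraries with intervals apart from N2, whereas the nos-3 intervals overlap between strains.

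The Nanos genes encode zinc-finger RNA-binding proteins. nos-3 (WBGene00003785), which promotes meiotic entry with GLD-1, had 122 and 121 CPM in the mutant, against 134 and 135 CPM in N2. The libraries of each strain lay close together, with a clear step between strains. The log2 fold change was -0.14 (SE 0.041; edgeR adjusted p = 0.00538), or 90.9% of the N2 level, and it turned to 0.085 with scaling on germline genes. Over the alternatives the adjusted p ran from 1.2e-10 to 0.284. Without mutant replicate 1 the value was -0.15 and without mutant replicate 2 it was -0.13, and neither passed (adjusted p = 0.0515 and 0.0888). Against gld-2, nos-3 had 181 and 177 counts per 100 in the mutant and 175 and 183 in N2, so the ratio overlapped between strains.

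nos-2 (WBGene00003784), which acts in the primordial germ cells of the embryo, had 8 and 6 counts in the mutant libraries, against 5 and 3 counts in the N2 libraries. These are 0.293 and 0.270 CPM in the mutant and 0.152 and 0.108 CPM in N2, close to the limit of 0.091 to 0.134 CPM that a count of 0 allows. Exact Poisson 95% intervals spanned 2.2 to 15.8 counts in the mutant and 0.62 to 11.7 counts in N2 and overlapped. A difference in nos-2 was not detectable at this depth.

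With TMM scaling, none of the genes for the Notch ligand, the germline receptor and the DNA-binding protein was called. lag-2 (WBGene00002246), the ligand gene, had 24 and 15 counts in the mutant, against 9 and 19 counts in N2, or 0.879 and 0.675 CPM against 0.273 and 0.683 CPM. The strains overlapped, and N2 replicate 1 was low. At 0.76 on the log2 scale, the fold change did not pass (SE 0.40; edgeR adjusted p = 0.145), with an interval from -0.04 to 1.56. It was 1.51 without N2 replicate 2 (adjusted p = 0.0276) and 0.20 without N2 replicate 1 (adjusted p = 0.795), so the value rests on which N2 library is used. hlh-12, another marker of the distal tip cell, picked after its values were seen, had 3 and 1 counts in the mutant and 7 and 1 counts in N2, too few to test.

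glp-1 (WBGene00001609), the receptor gene, had 19.2 and 17.8 CPM in the mutant, against 19.5 and 20.3 CPM in N2. Both mutant libraries were below N2, by less than the distance between the mutant libraries. Its log2 fold change was -0.10 (SE 0.074; edgeR adjusted p = 0.325), with an interval of the remaining level from 84.3% to 103.4%. It was -0.161 without mutant replicate 1 and -0.049 without mutant replicate 2, and passed as lower with somatic scaling (-0.273, adjusted p = 0.00129). lag-1 (WBGene00002245) had 7.80 and 9.04 CPM in the mutant, against 7.62 and 8.73 CPM in N2, which overlap. Its log2 fold change was 0.04 (SE 0.109, edgeR adjusted p = 0.821), with an interval from 88.4% to 119.5% of the N2 level. It turned to -0.064 without N2 replicate 1 and without mutant replicate 2. glp-1 had 246.5 and 197 counts per 100 lag-1 counts in the mutant and 255.4 and 232.9 in N2, so this ratio overlapped between strains.

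The direct Notch targets were read with different precision. sygl-1 (WBGene00012104) had 40.18 and 42.05 CPM in the mutant, against 44.7 and 46.7 CPM in N2, with no overlap. The log2 fold change was -0.15 (SE 0.055; edgeR adjusted p = 0.0239), or 89.9% of the N2 level, and it turned to 0.07 with scaling on germline genes. Over the alternatives the adjusted p ran from 2.58e-07 to 0.475. The call was lost without N2 replicate 2 (-0.12, adjusted p = 0.155) and without mutant replicate 1 (-0.12, 0.25).

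lst-1 (WBGene00003083) had 6.56 and 8.45 CPM in the mutant, against 6.65 and 7.12 CPM in N2. Mutant replicate 1 lay below and mutant replicate 2 above both N2 libraries. A log2 fold change of 0.11 was estimated (SE 0.118; edgeR adjusted p = 0.501), with an interval from 91.9% to 127.4% of the N2 level, and it turned to -0.068 without mutant replicate 2. lst-1 had 16.3 and 20.1 counts per 100 sygl-1 counts in the mutant and 14.9 and 15.2 in N2, so both mutant ratios lay above both N2 ratios. Their intervals overlapped (13.9 to 23.5 over the mutant libraries and 12.8 to 17.7 over the N2 libraries). These counts did not resolve whether lst-1 and sygl-1 differ in their response.

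**Figure D3:**
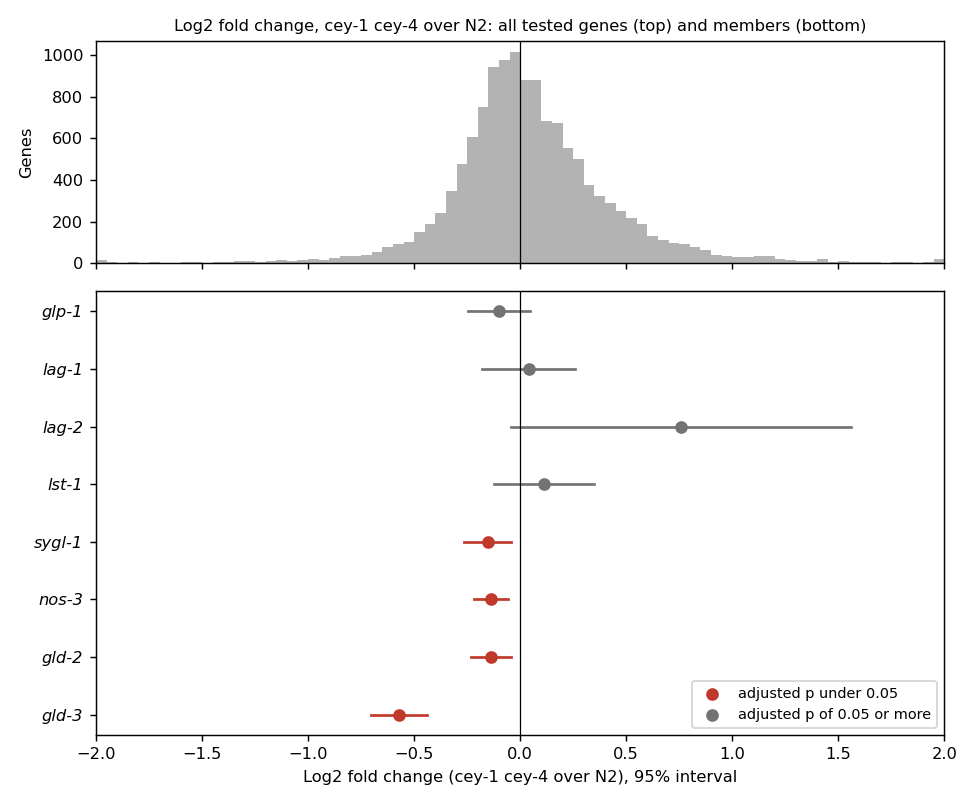
Top, number of genes (vertical axis) by log2 fold change, mutant over N2, for all 13086 genes tested, with values beyond 2 in either direction placed in the end bins. Bottom, the 8 tested genes with 95% intervals, red where the edgeR adjusted p was under 0.05. gld-3, at -0.57, lies farthest from 0 among the 4 in red, and lag-2 has the widest interval, -0.04 to 1.56.

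Both strains overlapped for lag-1, lag-2 and lst-1. For 5 of the 8 tested genes both mutant libraries lay below both N2 libraries, and over all genes tested the same was true of 31.3%. For nos-2, which was not tested, both mutant libraries lay above N2, as they did for 33.5% of all genes tested. In the RefSeq table of the WBcel235 assembly, glp-1, lag-1, nos-2, nos-3 and gld-2 each overlap another protein-coding gene, and nos-2 lies with him-14. The sources used here do not say how reads over overlapping genes were counted or whether strand was used, so these 5 counts may include reads of a neighbour. No overlap was found for gld-3, sygl-1, lst-1 or lag-2.

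The choice of scaling set the sign of several small values. Somatic scaling used the muscle, intestine and neuron marker lists described below, and germline scaling used the germline marker list. With libraries scaled on muscle, intestine and neuron genes, the median of all genes moved by -0.17 on the log2 scale, and with libraries scaled on germline genes by 0.22. Somatic scaling called 5 of the 9 genes lower and 0 higher, and 37.3% of all genes lower and 8.73% higher. Germline scaling called 1 lower, gld-3, and 2 higher, lag-2 and lst-1, and 3.26% of all genes lower and 40.6% higher. Relative to the median of all genes, gld-3 lay at -0.58 under TMM, somatic and germline scaling alike, since a scaling shifts all genes by nearly the same amount, sygl-1 at -0.17 under TMM and at -0.16 under germline scaling, and nos-3, gld-2 and glp-1 between -0.15 and -0.11 in each of them.

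**Figure D4:**
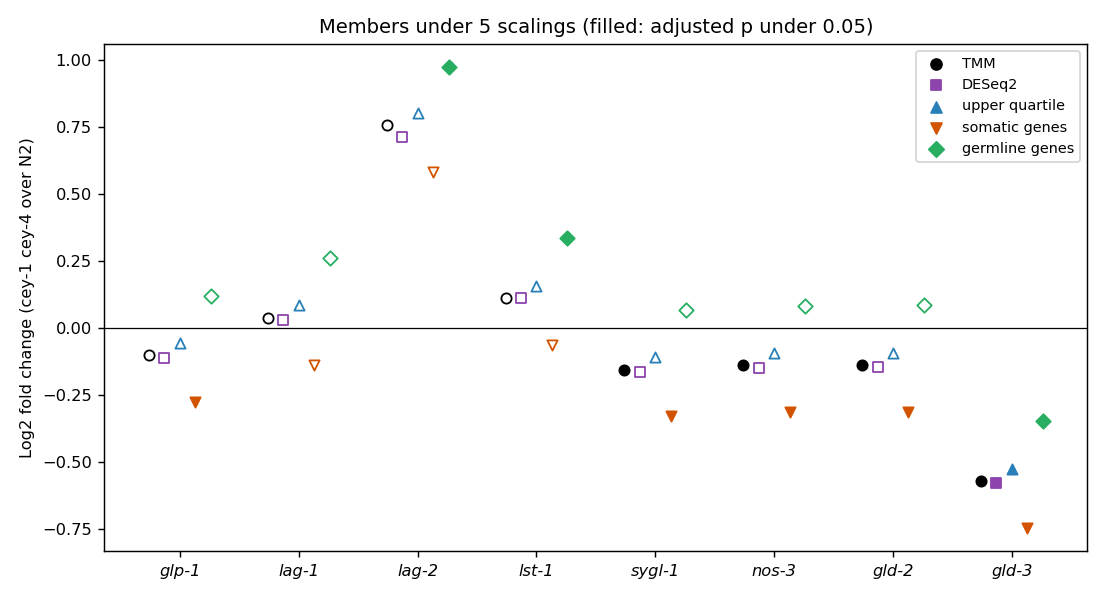
Log2 fold change, mutant over N2 (vertical axis), of the 8 tested genes under TMM, DESeq2, upper-quartile, somatic-gene and germline-gene scaling, filled where the adjusted p was under 0.05. gld-3 is filled and negative throughout, from -0.74 to -0.35. lag-2 had no adjusted p with DESeq2 and is drawn open there. With germline scaling glp-1, sygl-1, nos-3 and gld-2 lie above 0, and with somatic scaling lag-1 and lst-1 lie below 0.

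Other genes of the same pathways were described from lists chosen with earlier results of these data known. Their counts stand beside 16.6% fallers and 17.4% risers over all genes tested, and no list was tested against these shares. Of 14 Notch processing and nuclear genes, 5 fell, 1 rose and 8 were not called (median log2 fold change -0.14). The ADAM protease gene sup-17, whose product cleaves Notch receptors at the cell surface, had 47.0 and 49.2 CPM in the mutant, against 64.9 and 69.8 CPM in N2, and fell by 0.48 (SE 0.052; edgeR adjusted p = 1.89e-12). The gamma-secretase gene aph-1 fell by 0.33 (edgeR adjusted p = 0.00288), a call lost with DESeq2, with germline scaling and without mutant replicate 1 (-0.34, -0.11 and -0.29). The ubiquitin ligase gene ubr-5 rose by 0.14 with TMM scaling (edgeR adjusted p = 0.00823), had -0.04 with somatic scaling and was not called with DESeq2 (0.131) or without mutant replicate 2 (0.12).

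Of 10 further Notch receptor and ligand genes, 5 had too few counts to be tested, and none of the other 5 was called with TMM scaling. The second Notch receptor gene lin-12 had 3.08 and 3.28 CPM in the mutant, against 3.77 and 3.59 CPM in N2, with a log2 fold change of -0.22 (adjusted p = 0.32). It passed as lower with somatic scaling (-0.391, adjusted p = 0.0392). The secreted co-ligand genes osm-11 and osm-7 had 0.07 (adjusted p = 0.126) and 0.03 (adjusted p = 0.854). Both turned negative with somatic scaling, where osm-11 passed the test (-0.102, adjusted p = 0.0272) and osm-7 did not (-0.149). osm-11 passed as higher with germline scaling (0.298), with upper-quartile factors (0.119) and without N2 replicate 2 (0.115), and osm-7 with germline scaling (0.243, adjusted p = 0.0329). Without N2 replicate 1 and without mutant replicate 1, osm-7 was at -0.071 and -0.103.

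Of 23 tested genes of the stem cell pool and meiotic entry, 11 fell, 3 rose and 9 were not called (median -0.09, range -1.18 to 1.92). Over all genes tested, 16.6% fell and 17.4% rose. The 3 risers, named after their values were seen, were fog-3 (1.92, edgeR adjusted p = 2.49e-07), fog-1 (0.95, 0.0161) and ego-1 (0.13, 0.0182). DESeq2 called 0 risers in this list. fog-3 had few counts, 49 and 44 in the mutant and 18 and 12 in N2. The PUF repressor genes puf-3 and puf-11 were at 49.7% and 52.6% of the N2 level, with log2 fold changes of -1.01 and -0.93 (edgeR adjusted p = 8.13e-33 and 6.38e-30), and as near relatives they may share reads. The abundant genes car-1, a P-body and germ granule component, and glp-4, the valyl-tRNA synthetase gene, fell by 0.20 and 0.16 with TMM scaling and had 0.03 and 0.07 with germline scaling. The car-1 call was lost without mutant replicate 1 (-0.19), and the glp-4 call with upper-quartile factors (-0.109) and without N2 replicate 1 (-0.13), mutant replicate 1 (-0.17) or mutant replicate 2 (-0.14).

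Some genes of this list were picked after their values were seen, because they stand next to the 9 genes in the pathway. fbf-1, which encodes a PUF partner of LST-1 and SYGL-1, fell by 0.29 (SE 0.087; edgeR adjusted p = 0.0058) and lost the call with DESeq2 (-0.30), with germline scaling (-0.07) and without mutant replicate 2 (-0.22). Its close relative fbf-2 had -0.07 (adjusted p = 0.429), was at 0.145 with germline scaling and passed as lower with somatic scaling (-0.249, adjusted p = 0.00149). fbf-1 and fbf-2 may also share reads. gld-1, which encodes a translational repressor that promotes meiotic entry, had 282 and 291 CPM in the mutant, against 278 and 278 CPM in N2, and 0.04 on the log2 scale (adjusted p = 0.406). That value was -0.13 with somatic scaling and 0.27 with germline scaling, and both passed the test. gld-3 had 7.35 and 7.78 counts per 100 gld-1 counts in the mutant and 11.7 and 11.3 in N2. The genes for cyclin E and its kinase partner, cye-1 and cdk-2, fell by 0.45 and 0.52.

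Of 17 tested poly(A) polymerases, poly(A)-binding proteins and partners, 8 fell, 4 rose and 5 were not called (median -0.06), where 16.6% of all genes tested fell and 17.4% rose. The poly(A) list shares fog-1, gld-1 and daz-1 with the one before. Besides rnp-8, the translational repressor gene ifet-1 fell by 0.20 with TMM scaling (0.02 with germline scaling). The poly(A)-binding protein gene pab-2 rose, with 126 and 132 CPM in the mutant, against 88.8 and 90.9 CPM in N2 (log2 fold change 0.52, SE 0.043, edgeR adjusted p = 4.22e-17). Its paralog pab-1 had 1322 and 1337 CPM in the mutant, against 1367 and 1401 CPM in N2, and did not pass (-0.06, adjusted p = 0.461). It passed as lower with somatic scaling (-0.233, adjusted p = 2.91e-04) and had 0.167 with germline scaling. gld-4, the second germline cytoplasmic poly(A) polymerase, was picked after its value was seen and fell by 0.13 with TMM scaling (edgeR adjusted p = 0.0441). It had 0.095 with germline scaling, and the call was lost in 9 of the 13 alternatives, among them those without N2 replicate 1 (-0.096), mutant replicate 1 (-0.098) or mutant replicate 2 (-0.157).

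Of 12 deadenylase genes, whose products shorten the tails that GLD-2 lengthens, 6 fell, 2 rose and 4 were not called (median -0.08). Over all genes tested, 16.6% fell and 17.4% rose, so the risers were near the share of all genes. The CCR4-NOT subunit gene ntl-2 and the PAN complex gene panl-3 fell by 0.31 and 0.34 (edgeR adjusted p = 2.69e-06 and 6.92e-05) with TMM scaling, and had -0.09 and -0.12 with germline scaling, where neither was called. The scaffold gene let-711 fell by 0.10 (edgeR adjusted p = 0.0395) with TMM scaling, and had 0.12 with germline scaling. Its call was lost in 9 of the 13 alternatives, among them those without N2 replicate 1 (-0.087), mutant replicate 1 (-0.095) or mutant replicate 2 (-0.107). The CCR4-NOT gene ntl-3 had -0.03 (adjusted p = 0.584), and it was called in opposite directions at -0.205 with somatic scaling (adjusted p = 5.35e-06) and at 0.194 with germline scaling (adjusted p = 0.00467).

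**Figure D5:**
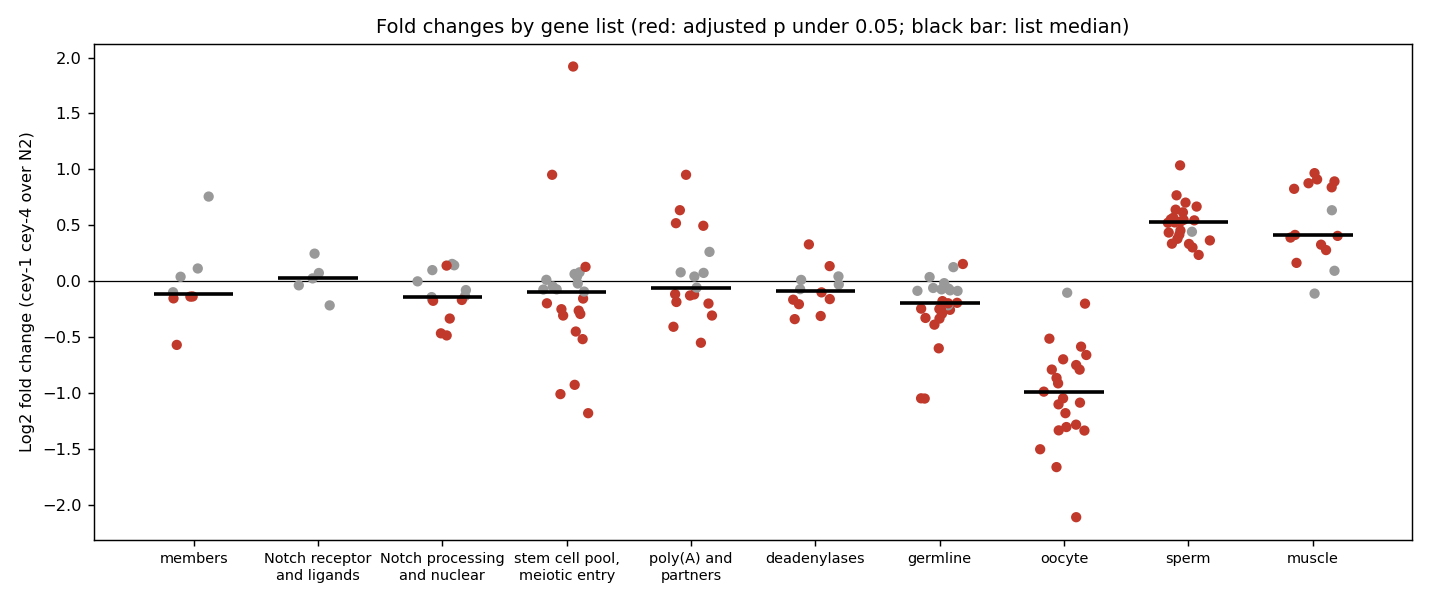
Log2 fold change, mutant over N2 (vertical axis), of each tested gene in the 9 chosen genes, 5 pathway lists and 4 cell type marker lists, red where the edgeR adjusted p was under 0.05, with list medians as black bars. The pathway medians lie between -0.14 and 0.025, the oocyte median is -0.99 and the sperm median is 0.53.

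Markers of other germline stages and tissues moved with strain in the same libraries, where 16.6% of all genes tested fell and 17.4% rose. Of 25 tested germline markers, 14 fell and 1 rose (median -0.20), with summed levels of 5213 and 5179 CPM in the mutant and 6204 and 6387 CPM in N2. Of 23 oocyte markers, 22 fell (median -0.99), with 4520 and 4457 CPM in the mutant, against 7353 and 7595 CPM in N2. Of 23 tested sperm markers, 22 rose (median 0.53), with 2062 and 2184 CPM in the mutant, against 1486 and 1563 CPM in N2. Near relatives in the sperm list, such as the msp genes, may share reads, so its risers are not all separate genes' evidence. Of 15 muscle markers, 12 rose (median 0.41), with 28111 and 28282 CPM in the mutant and 16074 and 17078 CPM in N2.

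Other somatic lists moved less, beside the 17.4% of all genes tested that rose and the 16.6% that fell. Of 17 intestine markers, 8 rose and 4 fell (median 0.13), of 15 neuron markers 5 rose and 3 fell (median 0.12), and of 8 tested somatic gonad markers 2 rose and 2 fell (median -0.09). Their summed levels were 15089 and 15199 CPM in the mutant and 14169 and 14087 CPM in N2 for intestine, 232 and 239 CPM in the mutant and 247 and 267 CPM in N2 for neurons, and 689 and 704 CPM in the mutant and 614 and 624 CPM in N2 for the somatic gonad. Sums lean on abundant genes. In the somatic gonad list fln-1 alone had 565 and 583 CPM in the mutant and 485 and 496 CPM in N2. The most abundant neuron marker, egl-3, had 44.7 and 46.95 CPM in the mutant and 60.4 and 68.6 CPM in N2. Of all these markers only ehn-3, of the somatic gonad list, had 0 counts in any library, and it had 0 in all 4. It is named because of those values. The part of these shifts in the values of gld-3, gld-2, nos-3 and sygl-1 was not tested. gld-3 lay between the germline median of -0.20 and the oocyte median of -0.99, and rme-2 is in both of those lists. Other lists share genes too. rec-8 and nos-1 are in the germline and stem cell pool lists, and lin-12 is in the Notch receptor and somatic gonad lists.

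The genes whose 4 levels lay nearest to those of gld-3, by Euclidean distance of log2 CPM over the 4 libraries, were unc-59 (0.099), skpt-1 (0.101) and inx-22 (0.159). unc-59 encodes a septin, skpt-1 an F-box protein related to Skp2 and inx-22 a germline gap junction protein. Their log2 fold changes were -0.63, -0.65 and -0.61. With 4 libraries in 2 strains, nearness mostly reflects a like mean level and a like difference between strains.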

How the data were processed

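Ribosome footprints were measured in 4 libraries. The authors deposited whole-number counts per gene, and Bowtie is named, with no version, per the submitters' processing notes. Not given in the sources used here: genome build, annotation, counting rule, read filters. The deposited log2 values were recomputed, within 0.0005, by scaling each count to the library with the lowest total, adding a pseudocount of 8 and taking log2. Of 20182 features, 18778 had a symbol by identifier, and 3 named by sequence name were left out. No sample column was left unused. Of the listed genes, pup-1, ntl-1 and tob-1 were not matched.

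The main test was the quasi-likelihood test of edgeR 4.0.16 (R 4.3.3, TMM factors, filterByExpr at min.count 10, robust glmQLFit, glmQLFTest, 2-sided), adjusted by Benjamini-Hochberg over 13086 genes, threshold 0.05. The SE is the log2 fold change divided by the square root of F. The test was checked on simulated data. Libraries of a strain differed by more than counting error: chi-square over genes was 8.4 per degree of freedom in the mutant and 24.8 in N2. This cannot tell whether that spread is technical. The SD of the log2 CPM difference between libraries of a strain, over genes with many counts, had the other order. It was 0.174 in the mutant and 0.139 in N2. Alternatives, run also with limma 3.58.1 and DESeq2 1.42.0, are given in the closing section. Levels per coding length, which had been planned, were not computed because no coding lengths were used.

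The 9 genes, the lists and the tests were chosen with earlier results of these data known. Named genes were the 9, cey-1 and cey-4, up to 4 genes per pathway list (2 by lowest p, 2 by highest mean CPM), the 2 most abundant of each marker list and the 3 nearest to gld-3. Of the abundant markers the text describes only fln-1 and egl-3 singly. One further gene of the set is not reported here. Genes outside this rule are marked in the text as picked after their values were seen. Ratios of counts within a library were not among the planned results; the 7 pairs of genes were chosen after the levels of the 9 genes had been seen.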

Additional observations from a re-analysis of the deposited data

How the results depend on the processing

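gld-3 kept its direction and its call under all 13 alternatives (log2 fold change -0.74 to -0.35). The 4 falls became 1 with upper-quartile factors, 1 with DESeq2 and 1 with germline scaling, where 2 genes rose. With upper-quartile factors sygl-1, nos-3 and gld-2 had -0.108, -0.092 and -0.091 and did not pass, nor did they with DESeq2, at -0.162, -0.146 and -0.145 (adjusted p = 0.173, 0.0575 and 0.136). Germline scaling gave glp-1 0.121, lag-2 0.975 (now past the threshold), lst-1 0.337 (now past the threshold), sygl-1 0.07, nos-3 0.085 and gld-2 0.086. Somatic scaling gave glp-1 -0.273 (now past the threshold), lag-1 -0.135 and lst-1 -0.061.

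Leaving out 1 library in turn (the lone library is taken to vary as the other strain's do) kept gld-3 lower and lost some of the other falls each time. The ranges were -0.161 to -0.049 for glp-1, -0.064 to 0.148 for lag-1, 0.199 to 1.507 for lag-2, -0.068 to 0.297 for lst-1, -0.189 to -0.121 for sygl-1, -0.148 to -0.13 for nos-3 and -0.164 to -0.111 for gld-2. lag-1 was at -0.064 without N2 replicate 1 and without mutant replicate 2, and lst-1 at -0.068 without mutant replicate 2. The labels share replicate numbers, and same-numbered libraries deviated together only weakly (correlation 0.0869). With the replicate number as a block, 2431 genes rose and 2351 fell, and the 4 falls and no rise among the 9 genes were unchanged (gld-3 at -0.57).

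Over all genes, 2278 rose and 2177 fell. These were 2730 and 1598 with upper-quartile factors, 1007 and 1185 with DESeq2, 1143 and 4876 with somatic scaling, and 5312 and 427 with germline scaling.

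List counts that moved by over 1.5 times follow, risers before fallers. Upper-quartile factors gave Notch receptor and ligand genes 1 riser, Notch processing genes 2 and 3, poly(A) genes 5 fallers and deadenylases 3 fallers. DESeq2 gave Notch processing 0 and 1, stem cell pool 0 risers, poly(A) 5 fallers, deadenylases 0 and 3, germline markers 0 risers and neuron markers 0 risers. The filter of 50 counts gave stem cell pool 1 riser. Somatic scaling gave Notch receptors and ligands 2 fallers, Notch processing 0 and 8, stem cell pool 18 fallers, deadenylases 0 risers, germline markers 0 and 23, muscle markers 1 faller, intestine markers 3 and 7, neuron markers 1 riser and somatic gonad markers 1 and 4. Germline scaling gave Notch receptors and ligands 2 risers, Notch processing 4 and 1, stem cell pool 9 and 5, poly(A) 2 fallers, deadenylases 5 and 0, germline markers 4 and 3, intestine markers 13 and 1, neuron markers 8 and 1 and somatic gonad markers 0 fallers. The germline marker list set the germline scaling, and the muscle, intestine and neuron lists set the somatic scaling. Counts of those lists under their own scaling follow in part from that choice.

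With 1 library left out, risers ranged from 0 to 1 for Notch receptors and ligands, Notch processing and germline markers, 0 to 2 for deadenylases, 5 to 8 for intestine and 1 to 4 for neuron markers. Fallers ranged from 3 to 4 for Notch processing, 5 to 8 for poly(A) genes and 0 to 1 for muscle markers.

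Single genes that changed sign with somatic scaling were osm-11 (-0.102), osm-7 (-0.149), ubr-5 (-0.036) and gld-1 (-0.134). With germline scaling these were lin-12 (0.004), fbf-2 (0.145), gld-4 (0.095), car-1 (0.027), glp-4 (0.068), pab-1 (0.167), ifet-1 (0.023), let-711 (0.124) and ntl-3 (0.194). ntl-3 was also at 0.016 with upper-quartile factors, and osm-7 was at -0.071 without N2 replicate 1 and -0.103 without mutant replicate 1 (range -0.103 to 0.125 with 1 library left out). The cause of these changes was not tested beyond the shift that each scaling gives to all genes. Depth limited lag-2 and nos-2, with 3 to 24 counts per library.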
